A study of Mus musculus with 6 samples.

Results

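A set of 10 genes that encode the thin filament, titin and the Z-disc of the cardiac sarcomere were followed in atrioventricular canal (AVC) regions of mouse hearts lacking Scleraxis. They were chosen by the structure to which their proteins belong, with earlier results of these data known. Actc1, Acta1, Tnnt2, Tnnc1 and Tpm1 belong to the thin filament, and Actn2, Ldb3 and Myoz2 to the Z-disc. The proteins of Ttn and Mybpc3 bind along the thick filament. The 10 genes took 11 of the 18810 gene identifiers in the table, because Tnnc1 was listed under 2 identifiers. RNA was taken from AVC regions holding the mitral, tricuspid and aortic valves of C57BL/6 embryos at embryonic day 15.5. The 3 Scx-/- embryos were homozygous for a null allele of Scx, not restricted to a cell type, and the 3 Scx+/+ embryos were littermate controls, each embryo giving 1 library. The regions were dissected with as little myocardium as possible, and no sorting of cells was described. Expression was given as RPKM, the reads of a gene scaled to its exon length and to the depth of the library, and values of the 3 libraries of a genotype are listed in the order of replicates 1, 2 and 3. The comparison asked whether sarcomere genes differ in level between the 2 genotypes.

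In striated muscle, myosin heads of the thick filament pull on thin filaments of sarcomeric actin, and calcium bound by troponin shifts tropomyosin along the actin to allow that contact. Titin runs from the Z-disc to the M-band and acts as a molecular spring, and cardiac myosin-binding protein C sits along the thick filament. At the Z-disc, alpha-actinin crosslinks the actin filaments of neighbouring sarcomeres, and PDZ-LIM proteins and myozenins bind to it. Heart valve leaflets consist mostly of mesenchymal and endothelial cells, whereas the muscle of the heart wall expresses these genes strongly.

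The promoters are printed because the genes share regulators of muscle transcription. All 10 members were found in a RefSeq promoter table built on GRCm38.p6, with 12 entries, and the 250 bases before each start were searched on both strands. The CArG box, the binding sequence of serum response factor, was present in Actc1, Acta1 and Ldb3, against 1.47% of all 32851 promoters. In each line 120 bases are shown 5′ to 3′ on the strand of the gene, with the CArG box in capitals, and the coordinates are those of the only exact match on that chromosome of mm9.
Actc1, chr2:113878622-113878741, minus strand: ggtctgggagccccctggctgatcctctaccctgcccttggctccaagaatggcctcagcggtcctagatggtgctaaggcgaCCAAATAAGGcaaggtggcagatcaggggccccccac
Acta1, chr8:126418686-126418805, minus strand: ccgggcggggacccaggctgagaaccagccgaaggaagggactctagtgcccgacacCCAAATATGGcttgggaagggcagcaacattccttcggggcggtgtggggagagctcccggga
Ldb3, chr14:35401878-35401997, minus strand: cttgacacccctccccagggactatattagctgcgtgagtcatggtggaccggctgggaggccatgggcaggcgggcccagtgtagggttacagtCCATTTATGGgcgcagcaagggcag
The MEF2 box, the binding sequence of the myocyte enhancer factor 2 proteins, was present in Ttn, Mybpc3 and Myoz2, against 2.92% of all promoters. It is in capitals in the next 3 lines.
Ttn, chr2:76820706-76820825, minus strand: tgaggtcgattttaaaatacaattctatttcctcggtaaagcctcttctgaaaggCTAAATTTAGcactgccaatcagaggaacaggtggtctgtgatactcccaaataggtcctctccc
Mybpc3, chr2:90958156-90958275, plus strand: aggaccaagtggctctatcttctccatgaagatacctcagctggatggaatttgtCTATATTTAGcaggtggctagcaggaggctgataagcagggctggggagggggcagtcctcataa
Myoz2, chr3:122737916-122738035, minus strand: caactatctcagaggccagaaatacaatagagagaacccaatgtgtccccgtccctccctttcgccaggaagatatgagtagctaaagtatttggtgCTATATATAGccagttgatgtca
The box of Ldb3 lay 35 to 26 bases before the start and that of Actc1 47 to 38 bases before it. The window of Actc1 covered 2 bases of an annotated exon, and the other 5 windows covered none. The E-box CANNTG, the motif of basic helix-loop-helix factors, the family to which Scleraxis belongs, was found in 8 members, in every one except Actc1 and Ldb3, and in 66.2% of all promoters. The M-CAT box CATTCC was found in Acta1, Tnnt2, Tnnc1 and Tpm1 and in 12.6% of all promoters. The TATA box TATAAA, searched on the strand of the gene alone, was found in Acta1 and in 7.59% of all promoters. These matches describe the letters of the window and do not show that a factor bound there.

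All 10 members were measured well above the detection limit in all 6 libraries. Depth was recovered from the whole-read steps of the RPKM values and ran from 46429986 reads in Scx+/+ replicate 2 to 68571016 reads in Scx+/+ replicate 3. Reads behind a member's value ran from 4563 for Acta1 in Scx+/+ replicate 2 to 1603418 for Ttn in Scx+/+ replicate 3, so that counting error was small beside the spread between embryos. The members took 4.02% to 4.70% of the reads of a library, counting Tnnc1 once.

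Scx was examined first, because its loss defines the genotypes. Its level was 33.6, 18.6 and 82.9 RPKM in Scx-/- and 29.5, 58.3 and 26.0 RPKM in Scx+/+. The genotypes overlapped, and the log2 difference was 0.07 ± 0.51 (SE, n = 3 per genotype; adjusted p = 0.996 from limma). The value covers both exons of the gene, and the null allele can still give reads from parts that were not deleted, so this level did not check the genotype labels. Before sequencing, the study measured the first exon in these samples and reported a very large fall in Scx-/- against controls, a measurement not analysed here.

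Across the 18810 genes, limma on log2(RPKM + 0.1) gave an unadjusted p below 0.05 for 731, and a gene past that threshold is said to be called. No gene had an adjusted p below 0.05, and the smallest adjusted p was 0.173. When each gene was tested alone, without pooling the spread, 862 genes were called and 1 passed the adjustment. The median log2 difference over all genes was 0.10, so differences are best read against that value. Of the calls, 72.6% were higher in Scx-/- with the deposited scaling, 43.5% once the median of each library was set to 0 and 49.9% after quantile normalization.

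Among the members 1 of 10 was called, Ldb3, which was lower in Scx-/-. Over all genes 3.89% were called in either direction and 1.06% were called lower. No member passed the adjustment over all genes (adjusted p from limma 0.967 to 0.996), and testing each gene alone also called 1 member. The median log2 difference of the members was 0.10, the same to 2 decimals as the median of all genes, with 5 members above that median and 5 below it. It ran from -0.036 without Scx+/+ replicate 3 to 0.22 without Scx-/- replicate 2. Libraries of the 2 genotypes did not overlap for 1 member, again Ldb3, against a background of 9.5% of all genes.

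**Figure D1:**
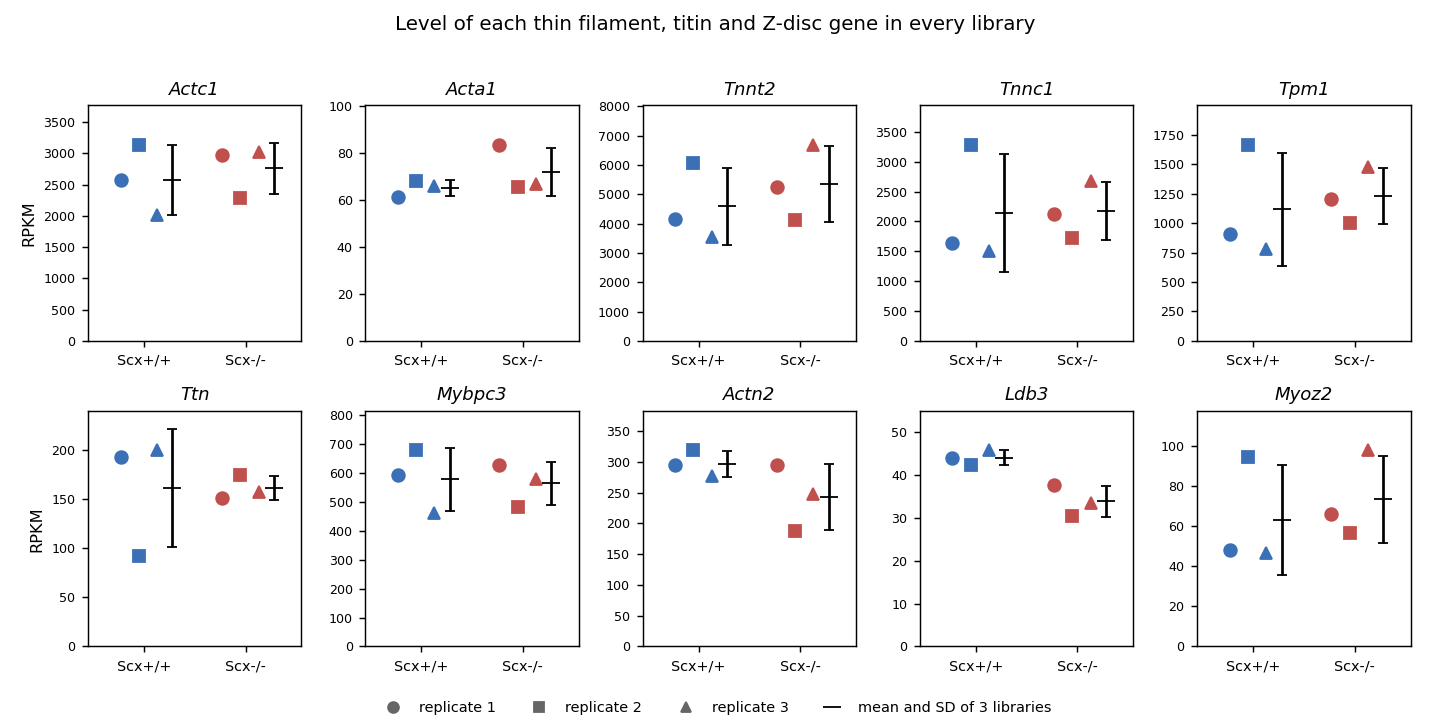
RPKM (vertical axes, each starting at 0) of the 10 members in the 3 Scx+/+ libraries (blue) and the 3 Scx-/- libraries (red), with the replicate number as the symbol and the mean and SD in black. The genotypes overlap in 9 panels, and in that of Ldb3 the Scx-/- libraries, at 30.4 to 37.6 RPKM, all lie under the Scx+/+ libraries, at 42.4 to 45.8 RPKM.

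The levels of the members spanned from 39.0 RPKM for Ldb3 to 4972 RPKM for Tnnt2, as means of the 6 libraries. From the top the order was Tnnt2, Actc1 with 2668, Tnnc1 with 2158, Tpm1 with 1173, Mybpc3 with 571, Actn2 with 270, Ttn with 162, Acta1 with 68.5, Myoz2 with 68.3 and Ldb3. Each neighbouring pair stood in this order in 6 of 6 libraries, with 2 exceptions. Actc1 was above Tnnc1 in 5 of 6 libraries, and Acta1 was above Myoz2 in 4 of 6. Tnnt2 ranked 32nd of the 18810 genes by mean RPKM, and Ldb3 ranked 1960th. RPKM divides by the length of all annotated exons, so a gene with many alternative exons, such as Tpm1 with 21 annotated transcripts, is given a lower level than its expressed transcripts alone would have.

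Of the thin filament genes, none was called. Actc1 (ENSMUSG00000068614, chr2:113873018-113879284, mm9), the cardiac alpha-actin, had 2978, 2294 and 3016 RPKM in Scx-/- and 2568, 3140 and 2011 RPKM in Scx+/+. Its highest and its lowest library were both Scx+/+. The means were 2763 ± 406 and 2573 ± 564 RPKM (SD, n = 3 each), a log2 difference of 0.12 ± 0.35 (SE, adjusted p = 0.988 from limma), and the 95% interval ran from 0.628-fold to 1.87-fold.

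Acta1 (ENSMUSG00000031972, chr8:126415669-126418651), the skeletal alpha-actin that the fetal heart also expresses, had 83.6, 65.5 and 66.7 RPKM in Scx-/- and 61.4, 68.0 and 66.01 RPKM in Scx+/+. Scx-/- replicate 1 stood above the other 5 libraries, which lay between 61.4 and 68.0 RPKM. The log2 difference was 0.14 ± 0.16 (SE, adjusted p = 0.967 from limma), with an interval from 0.848-fold to 1.42-fold. Expressed as a share of both sarcomeric actins, Acta1 made up 2.73%, 2.78% and 2.16% in Scx-/- and 2.34%, 2.12% and 3.18% in Scx+/+. The mean share was 2.56% ± 0.340 in Scx-/- and 2.54% ± 0.560 in Scx+/+ (SD, n = 3 each; difference 0.0122 percentage points, exact permutation p = 1, two-sided, where the smallest possible is 0.1). The share does not depend on how a library is scaled. The coding sequences of both actins are 86.2% identical, with no identical run over 29 bases, and how reads matching both were counted is not given in the sources used here.

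Troponin T and troponin C followed one another closely. Tnnt2 (ENSMUSG00000026414, chr1:137737452-137748837), cardiac troponin T, which anchors the troponin complex to tropomyosin, had 5259, 4116 and 6694 RPKM in Scx-/- and 4167, 6056 and 3539 RPKM in Scx+/+. Tnnc1 (ENSMUSG00000021909, chr14:32021498-32024915), the calcium-binding subunit, had 2124, 1723 and 2678 RPKM in Scx-/- and 1634, 3285 and 1501 RPKM in Scx+/+. Both were high in Scx-/- replicate 3 and Scx+/+ replicate 2 and lowest in Scx+/+ replicate 3. Their log2 differences were 0.23 ± 0.44 for Tnnt2 and 0.09 ± 0.39 for Tnnc1 (SE, adjusted p = 0.980 and 0.993 from limma). The intervals ran from 0.589-fold to 2.35-fold for Tnnt2 and from 0.574-fold to 1.98-fold for Tnnc1, so a doubling of Tnnt2 would lie within its interval. The second identifier of Tnnc1 (ENSMUSG00000091898) has a longer gene model that contains all 1041 exon bases of the first, and it held the same number of reads in every library, so it was not counted as a separate gene.

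Tpm1 (ENSMUSG00000032366, chr9:66870397-66897213), alpha-tropomyosin, the strand that covers the myosin-binding sites of actin, had 1208, 1002 and 1474 RPKM in Scx-/- and 909, 1666 and 779 RPKM in Scx+/+. The Scx+/+ libraries spread 2.14-fold from lowest to highest and enclosed all 3 Scx-/- libraries. The log2 difference was 0.20 ± 0.34 (SE, adjusted p = 0.976 from limma), with an interval from 0.668-fold to 1.97-fold.

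Titin and myosin-binding protein C had nearly the same mean in both genotypes. Ttn (ENSMUSG00000051747, chr2:76542037-76820604), whose 116828 exon bases make it the longest gene of the table, had 152, 175 and 157 RPKM in Scx-/- and 193, 92.4 and 200 RPKM in Scx+/+. Scx+/+ replicate 2 was the lowest of the 6 libraries for Ttn, although it was the highest for Actc1, Tnnc1, Tpm1, Mybpc3 and Actn2. The means were 161 ± 12.1 RPKM in Scx-/- and 162 ± 60.3 RPKM in Scx+/+ (SD, n = 3 each), and the log2 difference was 0.08 ± 0.29 (SE, adjusted p = 0.991 from limma; interval 0.666-fold to 1.67-fold).

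The difference in Ttn changed with the libraries and the correction used. Without Scx+/+ replicate 2 it was -0.29 (unadjusted p = 0.0726 from limma). After each library was corrected for exon length and GC content together it was 0.61, and Ttn was called (unadjusted p = 0.00507 from limma). Among genes with at least 10000 exon bases, 519 in all, the median log2 value centred on the 6 libraries was 0.04, 0.04 and -0.20 in Scx-/- and 0.23, -0.29 and 0.18 in Scx+/+. Long genes as a class were thus lowest in Scx+/+ replicate 2 and next lowest in Scx-/- replicate 3, and the part of transcript length alone in the Ttn values was not tested. An antisense transcript, Gm13938, overlaps 453 exon bases of Ttn, or 0.388% of them, and reads there cannot be told apart unless strand was used in counting.

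Mybpc3 (ENSMUSG00000002100, chr2:90958301-90976673), cardiac myosin-binding protein C, a modulator of crossbridge cycling, had 628, 484 and 580 RPKM in Scx-/- and 594, 678 and 462 RPKM in Scx+/+. The Scx-/- libraries all lay between the lowest and the highest Scx+/+ library. The log2 difference was -0.03 ± 0.24 (SE, adjusted p = 0.996 from limma; interval 0.676-fold to 1.43-fold), the nearest to 0 among the members.

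At the Z-disc, Ldb3 was the called member. Ldb3 (ENSMUSG00000021798, chr14:35339885-35401867) encodes the PDZ-LIM protein also known as ZASP or Cypher, which binds alpha-actinin. It had 37.6, 30.4 and 33.6 RPKM in Scx-/- and 44.1, 42.4 and 45.8 RPKM in Scx+/+. All 3 Scx-/- libraries were below all 3 Scx+/+ libraries. The means were 33.9 ± 3.58 and 44.1 ± 1.69 RPKM (SD, n = 3 each), a log2 difference of -0.38 ± 0.16 (SE, unadjusted p = 0.0358, adjusted p = 0.967 from limma) or 0.766-fold, with a 95% interval from 0.600-fold to 0.978-fold.

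The value for Ldb3 was negative in all 18 alternatives, from -0.52 to -0.31, and it was called in 13 of them. It was not called in limma without a trend (unadjusted p = 0.0873), with cardiomyocyte markers made equal (0.394), without Scx-/- replicate 2 (0.0580) and without both Scx-/- replicate 3 and Scx+/+ replicate 2 (0.0508). The fifth was the replicate block, given with the other alternatives. The constant sign of Ldb3 adds little, because its genotypes did not overlap and leaving libraries out could not change it. The expression filter, the fit without a trend and the replicate block also left the estimate itself unchanged.

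Actn2 (ENSMUSG00000052374, chr13:12361693-12433027), the sarcomeric alpha-actinin that forms the lattice of the Z-disc, had 295, 187 and 247 RPKM in Scx-/- and 295, 319 and 277 RPKM in Scx+/+. Scx-/- replicates 2 and 3 were below every Scx+/+ library, and Scx-/- replicate 1 was level with Scx+/+ replicate 1. The means were 243 ± 53.9 and 297 ± 20.9 RPKM (SD, n = 3 each), and the log2 difference was -0.31 ± 0.22 (SE, unadjusted p = 0.182, adjusted p = 0.967 from limma; interval 0.575-fold to 1.13-fold). It was negative in all 18 alternatives, from -0.46 to -0.14, and called in none.

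Myoz2 (ENSMUSG00000028116, chr3:122709124-122737908), calsarcin-1, which links calcineurin to alpha-actinin, had 66.1, 56.4 and 97.9 RPKM in Scx-/- and 48.0, 94.6 and 46.6 RPKM in Scx+/+. Its libraries fell in the same order as those of Tnnt2 for the top and bottom places, with Scx-/- replicate 3 highest and Scx+/+ replicate 3 lowest. The log2 difference was 0.26 ± 0.31 (SE, adjusted p = 0.967 from limma; interval 0.737-fold to 1.95-fold). Without Scx+/+ replicate 2 it was 0.59 and Myoz2 was called (unadjusted p = 0.0496 from limma).

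**Figure D2:**
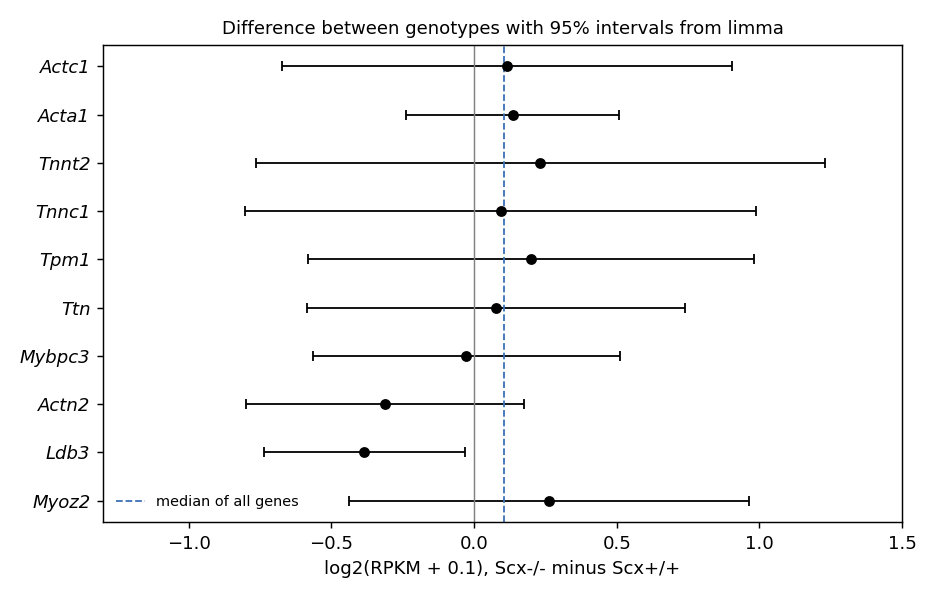
Log2(RPKM + 0.1) of Scx-/- minus Scx+/+ (horizontal axis) for each member, as points with 95% intervals from limma; the dashed line is the median of all genes at 0.10. The intervals of 9 members include 0, and that of Ldb3 ends at -0.03.

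Most members were high in the same libraries, and these came from both genotypes. Summed over the 10 genes, the level was 12831, 10132 and 15046 RPKM in Scx-/- and 10514, 15441 and 8927 RPKM in Scx+/+. Scx+/+ replicate 2 was the highest library for 5 members and among the top 2 for 8, and Scx+/+ replicate 3 was the lowest for 6. Over the 6 libraries, the log2 value of a member correlated with the mean of the other 9 at r = 0.94 for Actc1, 0.92 for Tnnt2, 0.89 for Tnnc1, 0.89 for Tpm1, 0.85 for Mybpc3 and 0.83 for Myoz2. Actn2 had r = 0.40, Acta1 0.31 and Ldb3 -0.13, and Ttn ran against the rest at -0.85. These 6 points share the depth and the dissection of each library, and the correlations are given as a description.

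Markers of heart muscle outside the sarcomere moved with the same libraries. The 14 cardiomyocyte markers, among them Pln, Atp2a2 and Mb, were all measured, and their summed level ran from 3559 to 6199 RPKM in Scx-/- and from 3075 to 7710 RPKM in Scx+/+. Their mean centred log2 value was highest in Scx+/+ replicate 2, at 0.67, and in Scx-/- replicate 3, at 0.37, the libraries in which the members were highest. One of the 14 was called, Ryr2, the calcium release channel, with 34.3, 31.7 and 44.2 RPKM in Scx-/- and 49.3, 45.8 and 55.9 RPKM in Scx+/+ (log2 difference -0.46; unadjusted p = 0.0308 from limma), a gene named after its values were seen. In these bulk samples, fewer muscle cells and less RNA per muscle cell cannot be told apart. With the 14 markers made equal in every library, no member was called. The log2 difference of Ldb3 was then -0.33, against -0.38 as reported, while its unadjusted p was 0.394 from limma. This setting subtracts the marker mean, whose centred value ran from -0.41 to 0.67 over the libraries, whereas that of Ldb3 ran from -0.34 to 0.25. The lost call therefore does not measure the part of muscle content in the Ldb3 difference, which was not tested.

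**Figure D3:**
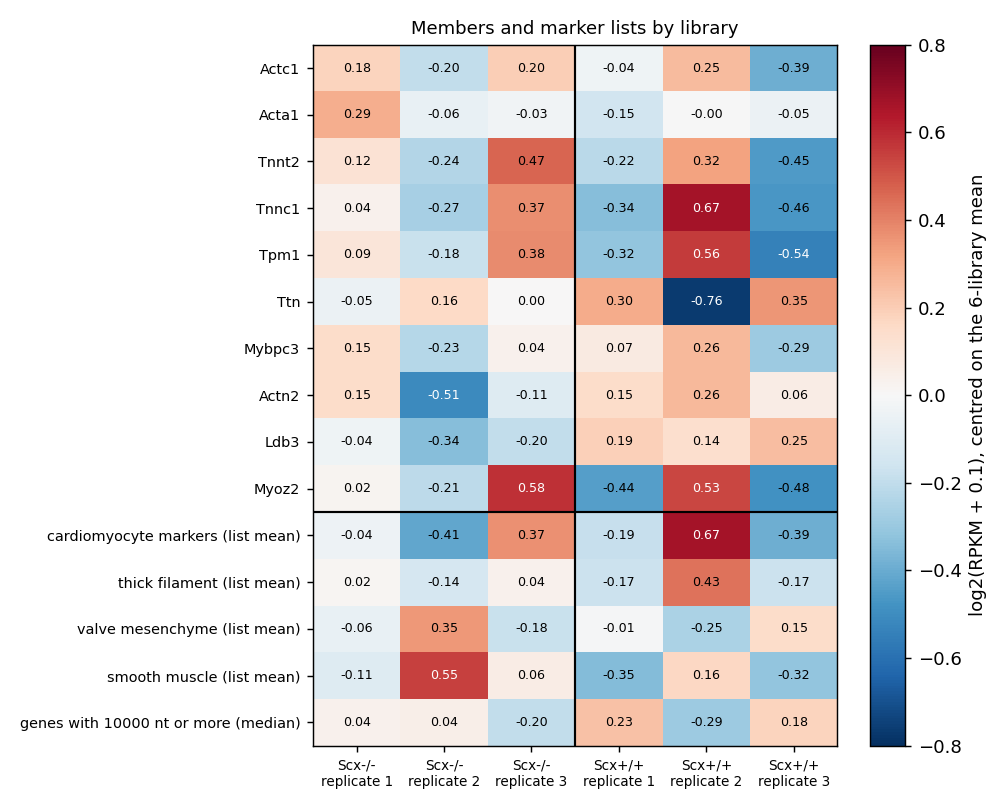
Log2(RPKM + 0.1) centred on the mean of the 6 libraries (colour and number), for each member, for the mean of 4 marker lists and for the median of genes with at least 10000 exon bases; the 3 left columns are Scx-/- and the 3 right columns Scx+/+. Most members and the cardiomyocyte markers are high in Scx-/- replicate 3 and Scx+/+ replicate 2, Ttn is lowest in Scx+/+ replicate 2 at -0.76, and Ldb3 is above 0 in the Scx+/+ libraries alone.

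Other cell types were checked with lists of their markers. All 6 thick filament genes were measured with none called, and neither were any of the 6 atrial, the 6 ventricular, the 8 endothelial, the 6 smooth muscle or the 7 erythroid markers. Of the valve mesenchyme markers 1 of 10 was called higher in Scx-/-, of the epicardial markers 3 of 6 and of the macrophage markers 1 of 6, where 2.82% of all genes were called higher. The log2 difference was below 0 for 6 of the 10 valve mesenchyme markers (median -0.02) and 2 of the 6 macrophage markers. It was above 0 for all 6 epicardial, all 6 smooth muscle and all 7 erythroid markers (medians 0.59, 0.37 and 0.25), and for 63.8% of all genes. The called macrophage marker, Cd68, had a mean of 0.654 RPKM, and in Scx+/+ replicate 2 it held 0.0949 RPKM, the value put in place of low ones. The valve mesenchyme markers summed to 622 to 828 RPKM in Scx-/- and 544 to 636 RPKM in Scx+/+. The largest means in that list were 254 RPKM for Postn, 144 for Dcn, 125 for Col3a1 and 71.1 for Lum, while Twist1 had 2.18 and Sox9 2.10. The tissue thus held transcripts of this list beside those of muscle, and the cells that gave them were not determined. The epicardial markers summed to 27.6 to 32.8 RPKM in Scx-/- and 21.1 to 23.4 RPKM in Scx+/+, and the part of any of these cells in the member values was not tested. Of 10 skeletal muscle markers, 5 were measured with none called, while Myod1, Myog, Myf5, Myf6 and Myh2 were not found among the 18810 genes. Ckm had a mean of 1593 RPKM, and Myh1, Myh8, Myh3 and Actn3 had 1.11, 0.459, 0.349 and 0.279 RPKM.

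The 5 genes outside the members whose log2 values followed the mean of the members most closely over the 6 libraries, of 13816 genes compared, were Sdha with r = 0.998, Coq4 with 0.997, Acadvl with 0.997, Fem1a with 0.997 and Atp5g3 with 0.996. Sdha encodes a subunit of succinate dehydrogenase, Acadvl an enzyme of fatty acid oxidation and Atp5g3 a subunit of the mitochondrial ATP synthase. Sdha had 282, 185 and 332 RPKM in Scx-/- and 223, 349 and 187 RPKM in Scx+/+, with the same 2 libraries on top as for the members. None of the 5 was called. The shared top libraries and the lack of calls largely follow from choosing these genes by their match to the members, so they are no separate evidence.

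The remaining genes of the same structures were listed by what they encode, and 53 of 59 were measured. Of these, 3 were called (5.66%, against 3.89% of all genes), all 3 lower in Scx-/-, and none after adjustment by limma. Their median log2 difference was 0.05, and libraries of the genotypes did not overlap for 5 of them (9.43%, against 9.5% of all genes). None of 13 other thin filament genes, 1 of 17 titin, M-band and C-protein partners and 2 of 23 other Z-disc genes were called.

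The 2 called Z-disc genes bind actin filaments. Flnc, filamin C, which crosslinks actin at the Z-disc and the cell membrane, had 11.02, 9.61 and 9.68 RPKM in Scx-/- and 15.2, 12.7 and 15.9 RPKM in Scx+/+. Its genotypes did not overlap, and the log2 difference was -0.52 ± 0.18 (SE, unadjusted p = 0.0156, adjusted p = 0.967 from limma). It was negative in all 18 alternatives and called in 16 of them, the exceptions being the fit with cardiomyocyte markers made equal and the one that joined a replicate block to the length and GC correction. As for Ldb3, leaving libraries out could not change the sign of Flnc, because its genotypes did not overlap. Synpo2l, a synaptopodin-like actin-associated protein, had 15.7, 10.2 and 14.2 RPKM in Scx-/- and 18.3, 16.1 and 23.4 RPKM in Scx+/+, again without overlap (log2 difference -0.53 ± 0.22, SE, unadjusted p = 0.0422 from limma), and was called in 10 of 18 alternatives. It lost its call without Scx-/- replicate 2 or 3 and without Scx+/+ replicate 1 or 3. Actn4 and Xirp1, named after their values were seen, also did not overlap between genotypes but were not called (unadjusted p = 0.0553 and 0.0602 from limma). The log2 difference of Actn4 was -0.41. Actn4 was listed here with the Z-disc genes, whereas the study discussed it with genes of the actin cytoskeleton. The study, which tested each gene alone and without adjustment, reported Actn4 as lower in Scx-/-. It also reported a rise of Actn4 in cultured rat valve interstitial cells overexpressing Scx, a measurement not analysed here.

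Trim54, a muscle RING-finger protein, was low throughout, with 0.572, 0.426 and 0.571 RPKM in Scx-/- and 0.940, 3.19 and 1.04 RPKM in Scx+/+. Scx+/+ replicate 2 stood far above the other 2 Scx+/+ libraries, and the log2 difference of -1.34 ± 0.50 (SE, unadjusted p = 0.0250 from limma) lost its call without that library, and also without any 1 of the Scx-/- libraries. The abundant genes of these lists were not called. Tnni3 and Tnni1, the cardiac and the slow skeletal troponin I, had log2 differences of 0.10 and 0.09, Ankrd1 and Myom1 of 0.09 and 0.01, and Csrp3 and Cryab of 0.17 and 0.04.

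No gene of the 14 regulators of sarcomere genes was called, against 3.89% of all genes. Srf, the factor that binds the CArG box, had 11.2, 9.57 and 8.15 RPKM in Scx-/- and 10.3, 11.1 and 7.13 RPKM in Scx+/+ (log2 difference 0.04 ± 0.23, SE). Mef2c, which binds the MEF2 box, had 20.1, 19.1 and 16.2 RPKM in Scx-/- and 20.2, 14.9 and 18.5 RPKM in Scx+/+ (log2 difference 0.06 ± 0.18, SE). The genotypes overlapped for both. Of the members with a CArG box before the start, Ldb3 was called and Actc1 and Acta1 were not, and of those with a MEF2 box none was called.

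**Figure D4:**
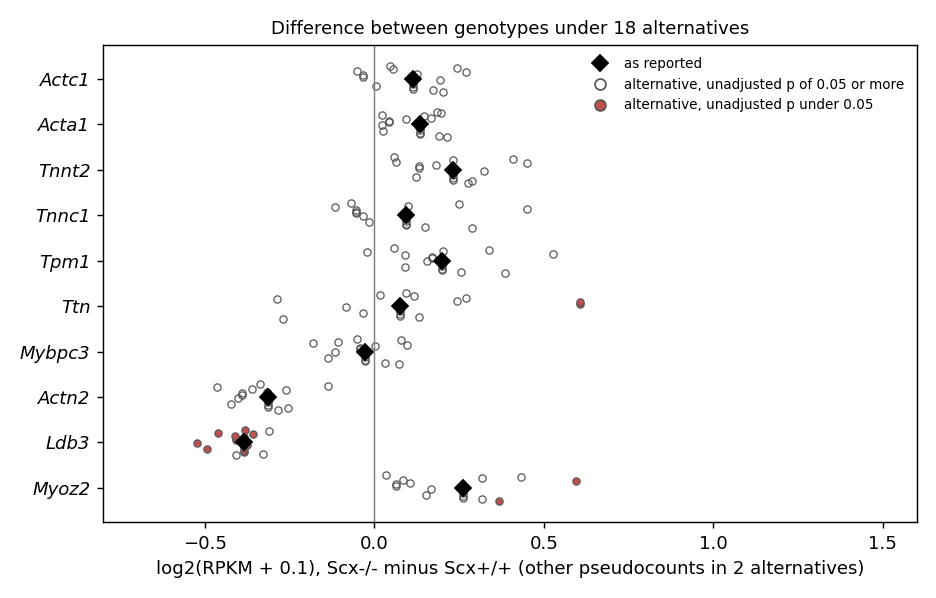
Log2 difference of Scx-/- minus Scx+/+ (horizontal axis) of each member as reported (diamonds) and under 18 alternatives in scaling, pseudocount, test and libraries used (circles, filled where the unadjusted p was below 0.05). Ldb3 and Actn2 lie below 0 in every alternative, Acta1, Tnnt2 and Myoz2 lie above 0 in every one, and the other 5 members fall on both sides of 0.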

How the data were processed

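RNA from AVC regions of 3 Scx-/- and 3 Scx+/+ embryos was sequenced, with 1 library per embryo. The authors aligned reads to mm9 with TopHat 1.4.1, counted reads in Ensembl exons with easyRNASeq, kept genes above a read minimum, replaced low values with a common one, found here as 0.0949 RPKM, and deposited RPKM, which are normalized for exon length and depth. No member held the common value. Reads and depth were recovered from RPKM and exon lengths of GENCODE (mm9), where 18695 of 18810 identifiers were found, and between 98.5% and 98.6% of values under 1000 reads came out whole within 0.1 read.

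Genotypes were compared in limma 3.58.1 (R 4.3.3) on log2(RPKM + 0.1) over all genes. The fit used an intensity trend and no covariates, and p-values were adjusted by the Benjamini-Hochberg method. This differs from the study, which tested each gene alone and without adjustment, a test kept as an alternative. Calls were made at unadjusted p-values below 0.05. The p-values measure the spread between embryos of 1 genotype. The alternatives, 17 planned and 1 added after seeing the data, are pseudocounts of 0.01 and 1, a filter at a mean of 1 RPKM, other scalings and tests, a length and GC spline with 5 degrees of freedom for each, a replicate block, and libraries left out. The Acta1 share was compared by an exact permutation test.

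The members, gene lists (other thin filament, titin, M-band and C-protein partners, other Z-disc, regulators, and markers of 11 cell classes) and alternatives were chosen with earlier results of these data known. Named are all members, Scx, from each list of other sarcomere genes the called genes and the 2 with the highest mean, called regulators with Srf and Mef2c, and the 5 genes with the highest Pearson correlation with the members' mean. The limma fit and the test of each gene alone were tried on simulated data with known changes, and no other step was. Other steps used matplotlib 3.10.9, scipy 1.17.1, pandas 2.3.3, numpy 2.4.6 and Python 3.11.15.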

Additional observations from a re-analysis of the deposited data

How the results depend on the processing

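With n = 3 per genotype the interval of Tnnt2 includes a doubling, and a p that misses the threshold does not show equal levels. The median log2 difference of the members, 0.10 as reported, was -0.0054 after quantile normalization, -0.0048 with library medians at 0, 0.0058 with the length and GC trend removed (with or without a replicate block), 0.16 with cardiomyocyte markers made equal and 0.21 without both Scx-/- replicate 3 and Scx+/+ replicate 2. With 1 library left out it ran from -0.036 (Scx+/+ replicate 3) to 0.22 (Scx-/- replicate 2 or Scx+/+ replicate 2), and was 0.041 without Scx-/- replicate 3. The count of members called, 1 as reported, was 0 in limma without a trend, with cardiomyocyte markers made equal and with a replicate block, 2 with the length and GC trend removed, 2 with that removal and a replicate block, and 0 to 2 with 1 library left out. Other sarcomere genes called, 3 as reported, were 7 after quantile normalization, 6 with library medians at 0, 0 with markers made equal, 5 with the length and GC trend removed, 7 without Scx-/- replicate 3 and Scx+/+ replicate 2, and 1 to 9 with 1 library left out, the extremes being without Scx-/- replicate 2 and without Scx+/+ replicate 2. Over all genes 234 were called with markers made equal and 1549 without Scx+/+ replicate 2, against 731.

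The sign of 5 uncalled members depended on the setting. Actc1 was -0.033 with the length and GC trend removed, with or without a replicate block, and Tnnc1 was -0.054 in both, -0.033 after quantile normalization and -0.015 with medians at 0. Ttn was -0.082 after quantile normalization, -0.034 with medians at 0 and -0.27 without the 2 libraries named above, and Mybpc3 was 0.031 with markers made equal and 0.073 without those 2. With 1 library left out, Actc1 ran from -0.051 to 0.27, Tnnc1 from -0.11 to 0.45, Tpm1 from -0.020 to 0.53, Ttn from -0.29 to 0.27 and Mybpc3 from -0.18 to 0.10, and the difference in the Acta1 share from -0.200 to 0.329 percentage points. Myoz2 was also called without the 2 libraries (0.37, unadjusted p = 0.0431 from limma). The causes were not tested.

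The labels do not say whether the replicate numbers pair the embryos. Deviations from the genotype mean correlated at 0.09, -0.22 and -0.19 for libraries with the same number. For Scx-/- replicate 3 with Scx+/+ replicate 2 the value was 0.32. The deviations of a genotype sum to 0, which ties these correlations to one another, so they cannot decide whether embryos were paired by number. With the number as a replicate block, 573 genes were called and Ldb3 was not (log2 difference -0.38, unadjusted p = 0.0742 from limma), Ttn was called (0.61, unadjusted p = 0.0120) when the length and GC trend was also removed, and the Acta1 share gave an exact sign-flip p of 1.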

Other observations

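The part of Ttn in the members' reads varied more between libraries than the members' share of the library. A lower part for Ttn means a higher part for the other members by construction. Long genes as a class were also lowest in Scx+/+ replicate 2, and the part of transcript length in these shares was not tested. Ttn took 41.5%, 50.9% and 39.1% of the members' reads in Scx-/- and 52.5%, 26.0% and 57.5% in Scx+/+, while the members together took between 4.02% and 4.70% of every library.

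Of the regulators, Myocd, the muscle coactivator of serum response factor, and Mef2d were the genes whose genotypes did not overlap, named after their values were seen. Myocd had 7.79, 6.01 and 7.67 RPKM in Scx-/- and 9.72, 8.12 and 11.6 RPKM in Scx+/+ (log2 difference -0.44 ± 0.21, SE; unadjusted p = 0.0646 from limma). Mef2d had 3.04, 2.30 and 2.16 RPKM in Scx-/- and 3.19, 3.10 and 4.14 RPKM in Scx+/+ (log2 difference -0.46 ± 0.26, SE; unadjusted p = 0.108 from limma). Neither was called, and 2 of 14 genes without overlap compares with 9.5% of all genes.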
